A study of Mus musculus with 44 samples.

Results

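The strongly cut AsiSI sites outside chromosome 2 are recognition sequences of the restriction enzyme AsiSI with a high listed cut fraction that lie on other chromosomes than the break from which translocations were read. They were taken from the study's list of 1109 mouse AsiSI motifs as those not on chromosome 2 with a listed cut fraction of at least 0.9, with 1 further site left out. This gave 30 sites on 15 chromosomes, set beside 211 moderately cut sites off chromosome 2 (listed cut fraction from 0.1 to under 0.9) and 4 strongly cut sites on chromosome 2. The listed fraction was 1 at 28 of the 30 and 0.97 at the other 2, and the next site below the threshold was listed at 0.89. A junction belonged to a site when the first base of the prey lay under 500 bp from its motif. Over the 26 libraries of AsiSI-MEFs the 30 sites held 15825 of 123783 deposited junctions.

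High-throughput genome-wide translocation sequencing (HTGTS) starts PCR next to 1 known break, the bait, and sequences whatever that broken end was ligated to, the prey. All libraries came from mouse embryonic fibroblasts (MEFs) of C57BL/6 background, labelled WT. AsiSI-MEFs carry an inducible AsiSI fused to the estrogen receptor. All 26 of their cultures, controls included, received doxycycline (3 µg/ml, 24 h) to express the enzyme and 4-hydroxytamoxifen (4OHT, 1 µg/ml, last 6 h) to let it enter the nucleus. In 6 pairs the culture received CK-666 (100 µM), an inhibitor of the actin nucleator ARP2/3, or its solvent DMSO. In 3 pairs it received NU7441 (10 µM, with 1 h of pretreatment), an inhibitor of the kinase DNA-PKcs, or DMSO. In 2 pairs it received wiskostatin (3 µM), an inhibitor of WASP, which activates ARP2/3, or DMSO. In 2 pairs it was transfected with actin R62D-NLS, a nuclear-targeted actin that does not polymerize, or with empty vector. A further 6 libraries came from wild-type MEFs in which Cas9 cut the same bait locus, 3 with CK-666 and 3 with DMSO, all labelled with 4OHT. The AsiSI-MEFs carried breaks at many sites at once, so prey at a listed site reports both cutting there and joining. The study calls its repeats biological replicates, while the labels give only replicate numbers. The p-values measure the spread between these libraries.

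AsiSI cuts the 8 bases of its palindromic motif so that each end carries a 3′ overhang of 2 bases. Classical non-homologous end joining (NHEJ), which needs DNA-PKcs, can ligate such ends with little or no loss of bases. Alternative end joining acts on ends that were trimmed back by resection and often pairs a few bases shared by both ends, called microhomology, or inserts copied bases. Because every AsiSI end carries the same motif bases, plain ligation of 2 untrimmed ends restores the motif, and the read then shows bait and prey overlapping by at least 8 bases.

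Examples of the sites are shown with 30 bases of mm10 around each cut, forward strand, 5′ to 3′, with the motif in capitals. The first is the bait, followed by the highest and second highest sites by share, the 3 sites with the most one-sided use of ends beside Cntln, a site with long end loss, and a site in AT-rich sequence.
Bait (Rsu1), chr2:13271306-13271335: accctgtcccaGCGATCGCgcaggcgcaca
Cntln, chr4:84884331-84884360: cactaggaaccGCGATCGCcggaccaggcg
Rab35, chr5:115632469-115632498: ggtcaagtcgcGCGATCGCtggagttggag
Slc7a6os, chr8:106210907-106210936: cctccatagcgGCGATCGCggagtactgtg
Glrx2, chr1:143739605-143739634: tcgtcgtggtcGCGATCGCctgctgctctc
Alas1, chr9:106247863-106247892: agcctaaggccGCGATCGCtggcggcccta
Rfng, chr11:120784152-120784181: gcacggctcatGCGATCGCcccggcccggg
Cped1, chr6:22187026-22187055: tttatattttaGCGATCGCcatggttaatt
The motif is the same in all of them, so the printed sequences differ only in the bases beside it. Where 2 whole ends join, the reference gives an overlap of 8 bases plus any flanking bases that happen to match the bait. This came to 8 to 10 bases at 57 of the 60 ends. The exceptions were the left end at Rab35 with 13 bases, the left end at Alas1 with 12 and the right end at AC148004.1 with 11.

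The sites lay close to promoters: 27 of the 30 were within 1 kb of an annotated transcription start, at a median distance of 160 bp. Moderately cut sites were not annotated in this way, so whether this sets the strongly cut sites apart was not tested. By the GENCODE annotation 11 lay in an untranslated region, 8 in an intron, 6 in a coding exon, 1 in a non-coding exon and 4 between genes. The GC content of the 300 bases on each side together ranged from 37.2% at Cped1 to 79.2%, with a median of 66.2%. Each site is named here after the nearest transcription start. On chromosome 1 these were Agap1 (89454603, intergenic), Actr3 (125435720, untranslated region), which encodes a subunit of ARP2/3 itself, and Glrx2 (143739620, untranslated region), a mitochondrial glutaredoxin. On chromosome 3 there was Syde2 (145989051, coding exon). On chromosome 4 there were Cntln (84884346, untranslated region), a centrosomal protein, Capzb (139192793, intergenic), a subunit of the actin capping protein, and Mxra8os (155841144, within a coding exon of Mxra8). On chromosome 5 there were Ociad1 (73292854, untranslated region), Scarb2 (92505504, untranslated region), a lysosomal membrane protein, Rab35 (115632484, intron), a small GTPase of membrane traffic, and Kdm2b (122899638, intron), a histone demethylase. Chromosome 6 held Cped1 (22187041, intron) and chromosome 7 held 2410002F23Rik (44246798, untranslated region). On chromosome 8 there were Homer3 (70283477, intron), a synaptic scaffold protein, Rtbdn (84952955, coding exon) and Slc7a6os (106210922, untranslated region). On chromosome 9 there were Alas1 (106247878, untranslated region), the first enzyme of heme synthesis, and the intergenic site nearest to Cck (121477514). On chromosome 11 there were Aff4 (53351764, intron), a scaffold of the super elongation complex, Xylt2 (94677356, coding exon), a xylosyltransferase of proteoglycan synthesis, Cdk12 (98203685, coding exon), a transcriptional kinase, and Rfng (120784167, untranslated region), a modifier of Notch. Single sites were Gm10076 on chromosome 14 (105682076, non-coding exon), Trps1 on 15 (50889504, intron), a transcriptional repressor, Dvl3 on 16 (20516989, untranslated region), a Wnt signal transducer, Caskin1 on 17 (24488893, untranslated region) and Fam160b1 on 19 (57361708, intron). Chromosome 18 held AC148004.1 (7004888, intergenic) and Ube2d2a (35772093, intron), a ubiquitin-conjugating enzyme.

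In the 6 DMSO libraries of the CK-666 set, the 30 sites together took 18.1, 16.1, 14.3, 17.0, 17.6 and 16.6% of the junctions on the main chromosomes more than 10 kb from the bait, called junctions away from the bait below. The mean was 16.6% ± 1.33 (SD, n = 6). The libraries held between 1133 and 5829 such junctions, and the 95% Wilson intervals of single libraries, which cover counting error only, ran from 13.4 to 15.2% in the lowest and from 15.96 to 20.4% in the highest. Over all 13 control libraries of AsiSI-MEFs the share ranged from 12.3 to 19.2%. In the 6 Cas9 libraries, whose cells had no AsiSI, the same windows took 0.315, 0.0317 and 0.926% in the DMSO libraries and 1.23, 0.147 and 1.49% in the CK-666 libraries. These were 133 of 19414 junctions, spread over 26 of the 30 sites, and 61.7% of them overlapped the bait by 8 or more bases. Their origin was not tested.

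The 30 sites were unequal (see the plot of junctions per site). Mean shares ranged from 1.505% at Cntln to 0.0118% at Gm10076, with a median over sites of 0.569%, and the 8 highest sites took 44.0% of the 3309 junctions. The window at Cntln gave 1.85, 0.909, 1.13, 1.77, 1.84 and 1.53% in the 6 libraries, above all others in the mean. A second listed motif lay 422 bp away, however, and its junctions fell within the same window. Counting only junctions nearer to the strongly cut motif left 766 of the 1298 junctions over the 26 libraries and a mean share of 0.887% ± 0.267 (SD, n = 6), which lies among the next sites. No other site lost a junction in this way.

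**Figure D1:**
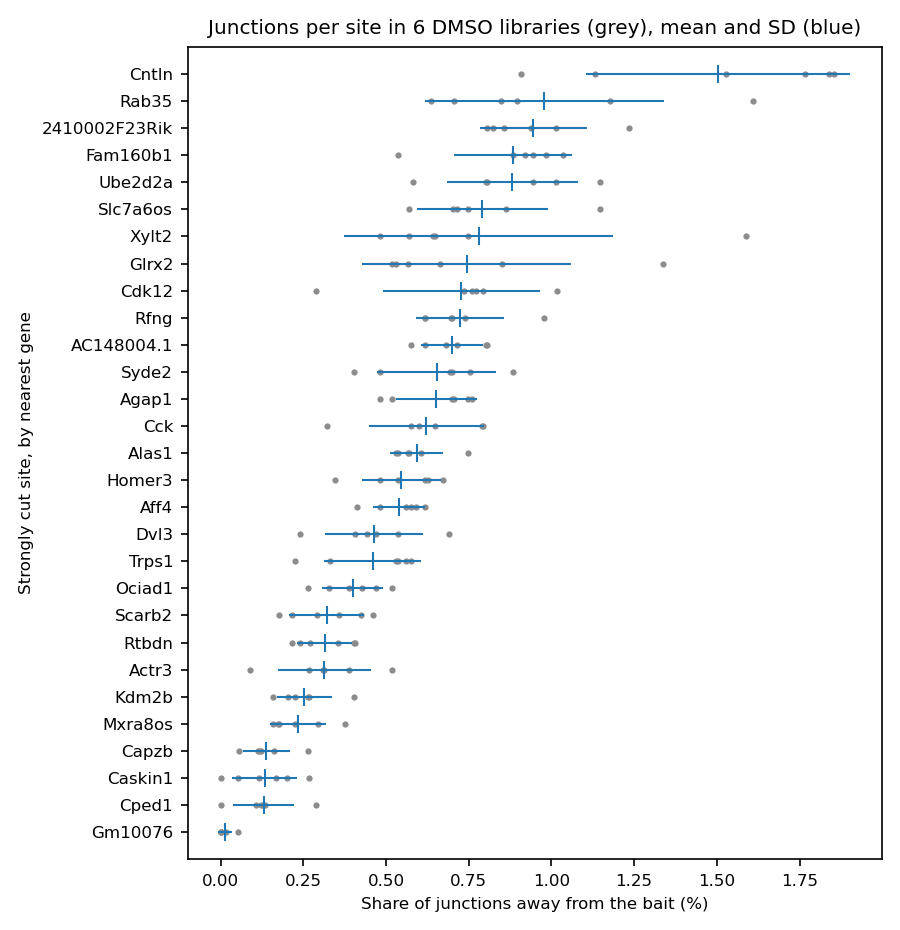
Share of the junctions away from the bait (x axis, percent) taken by each of 29 strongly cut sites (y axis, named by nearest gene) in the 6 DMSO libraries of the CK-666 set (grey points), with the mean and SD over libraries in blue. Means run from 0.0118% at Gm10076 to 1.505% at Cntln, and most neighbouring sites overlap.

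Rab35 followed with 0.706, 1.18, 0.635, 0.895, 1.61 and 0.847%. The site at 2410002F23Rik gave 1.24, 0.856, 0.823, 0.939, 0.805 and 1.01%, and Fam160b1 gave 0.883, 0.535, 0.944, 0.984, 1.03 and 0.920%. The ranges of these 3 sites overlapped one another and that of Cntln. Ube2d2a had a mean of 0.882% ± 0.197, Slc7a6os of 0.791% ± 0.198, Xylt2 of 0.780% ± 0.406 and Glrx2 of 0.744% ± 0.316 (SD, n = 6 each). At Xylt2 replicate 1 alone gave 1.59%, and the other libraries lay between 0.480 and 0.747%. At the bottom of the order, Capzb had a mean of 0.138% ± 0.0707, Caskin1 of 0.133% ± 0.0984 and Cped1 of 0.130% ± 0.0920 (SD, n = 6 each), and these 3 could not be told apart. Gm10076 held 2 junctions in the 6 libraries and 12 in all 26, although its listed cut fraction is 1. The 40 bases to the right of its motif occur 5 times in the reference genome and the 40 to the left once, whereas both flanks of each of the other 29 sites occur once. Of its 12 junctions 8 were to the right end and 4 to the left, and the part of the repeated flank in the low count was not tested. Each of the other 29 sites was found in at least 23 of the 26 libraries, and 20 sites had junctions in every one.

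Across the 30 sites the mean share had a Spearman's rho of 0.12 with the GC content of the flanks and of 0.30 with the listed break signal. These are descriptions over sites that share the same libraries, with no test.

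Strongly cut sites held more junctions per site than moderately cut ones. In the 6 DMSO libraries a strongly cut site held 6.53 to 28.8 junctions on average, and a moderately cut site 1.86 to 8.12. Within each library the ratio was close to constant: the log2 ratio was 1.79 ± 0.0546 (SD, n = 6), a 3.45-fold difference, higher in 6 of 6 libraries (exact sign-flip test, 2-sided p = 0.0312, the smallest that 6 libraries can give). The 4 strongly cut sites on chromosome 2, the chromosome of the bait, held 32.5 to 113 junctions per site. Their log2 ratio over the strongly cut sites elsewhere was 1.98 ± 0.245 (SD, n = 6), or 3.95-fold, again higher in 6 of 6 libraries (exact p = 0.0312). Over the 13 control libraries the log2 ratios were 1.75 ± 0.127 and 1.99 ± 0.190, each above 0 in 13 of 13 (exact p = 0.000244, the smallest possible).

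The position of the first prey base showed how the prey end had been trimmed. Of 9600 joins at the 30 sites in the 13 control libraries, 8260 ran outward, that is, the prey began in the motif, beyond it, or at most 8 bases before it, and was read away from the break. Those that began before the motif numbered 475. Of the 8260 outward joins, 33.5% had lost no base of the prey end, counting the overhang as present. A further 22.4% had lost 1 or 2 bases, up to the length of the overhang. A further 31.2% had lost 3 to 20 bases and 12.97% more than 20. The median loss was 2 bases and the 95th percentile 49. Losses over 100 bases made up 3.57% of the outward joins, within a window that ends at 500 bp.

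End loss was far from even among the ends. Over the 52 ends with 50 or more joins, the share with a loss over 20 bases had a median of 12.2% and reached 66.5% at the right end of Rfng. At that end 105 of 158 joins had lost more than 20 bases (Wilson interval 58.8 to 73.3%), and the median loss was 29 bases. These joins are pooled over the 13 libraries, so the interval covers counting error and not the spread between libraries. At the left end of the same break it was 23 of 125 (18.4%, interval 12.6 to 26.1%). The right end had the higher share in 12 of the 13 libraries, with a tie in the other. Rfng was singled out here after its values were seen, and the difference was not tested. The sequence printed above shows the run of C and G that begins at the right of the Rfng motif, and 84% of the first 50 bases there are G or C, against 78% on the left. The next highest ends were the right end at Homer3 with 33.2% and the left end at Cntln with 29.8%. Over the 52 ends, Spearman's rho between the share of long losses and the GC content of the first 50 bases was 0.55, a description over ends that share libraries and sites. The right end at Dvl3 and the left end at Actr3, both with 82% GC, had 24.1 and 21.2%. The part of GC content in end loss was not tested.

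The other 1340 joins, 13.96%, ran inward: the prey began in the flank and was read back toward the motif (see the plot of prey starts). Only 2 starts lay 9 to 21 bases before the motif, between the inward and outward joins. An inward prey that starts there and ends before or within the motif is short. Whether prey that short could be aligned and kept was not tested, so the gap alone does not separate 2 kinds of join. Inward prey began at a median of 61 bases before the motif, with the middle 80% between 36 and 188 bases. The alignment ended before the motif in 77.7%, within it in 19.1% and beyond it in 3.21%. Those that ended on the last motif base numbered 112 and those that read past it 43. Only the 43 reached bases beyond the motif. Ligation to another AsiSI end also restores the motif, and which of the 112 had such a join was not tested. Distinct positions made up 86.0% of the inward joins, counted within each library, and 61.2% of the outward ones.

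**Figure D2:**
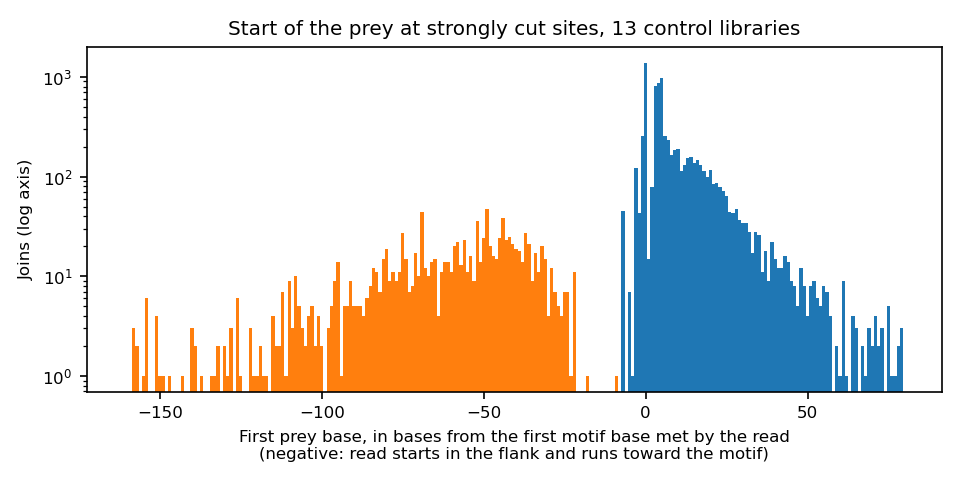
Number of joins (y axis, log scale) by the position of the first prey base (x axis, bases from the first motif base that the read meets) at the 30 sites in the 13 control libraries together; orange marks prey read toward the motif, blue prey read away from it. The tallest blue bars are starts at the motif or just inside it, and a gap separates the 1340 inward joins from the 8260 outward ones.

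Inward joins carried inserts. Bases that matched neither bait nor prey alignment were found in 59.4% of inward joins and in 5.87% of outward joins. Inserts of 10 or more bases numbered 562, and 93.2% of them were in inward joins. Of the 524 in inward joins, 98.5% occurred within 500 bases of the same site with at most 2 differences, against 11.1% within 500 bases of the next site in the list, which serves as the background of such a match. In 88.0% the insert equalled the flank on the prey's side read away from the motif, and 91.8% of these copies began within 3 bases of the motif. Such a read thus ran from the bait into a short outward stretch of the prey end, with a median insert of 16 bases, and then turned to run back toward the break from a point a median of 45 bases further out. Of the 38 long inserts in outward joins, 34.2% were found near their own site and 7.89% near the next one.

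The share of inward joins differed among sites. Over the 26 sites with at least 100 control joins it ranged from 2.84% at Aff4 to 31.8% at Dvl3, with a median of 16.4%. Agap1 (28.7%), Trps1 (25.4%) and Rfng (23.9%) were also high. Cdk12 (3.02%), Ociad1 (3.10%) and Cck (3.15%) were low although Cdk12 had 562 joins. Strongly cut sites had a larger inward share than moderately cut ones in 6 of 6 DMSO libraries, by 4.70 percentage points ± 2.97 (SD, n = 6, exact sign-flip p = 0.0312). This measure was defined after the positions had been seen.

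The ends of a break were not used equally at every site. Summed over the 30 sites, 47.0 to 51.5% of outward joins went to the right end in the 6 DMSO libraries. Per site, however, right-end use ranged from 26.6% at Glrx2 to 74.1% at Slc7a6os among the 29 sites with at least 50 outward joins in the 13 control libraries. An exact sign-flip test over the 13 libraries, adjusted over 199 motifs, called 13 of these 29 sites, 7 toward the right end and 6 toward the left. The background was 28.6% of all motifs tested, a set that includes these 29 sites. Moderately cut motifs held fewer junctions per site, which leaves this test less room for a call, and the rates were not compared. At Slc7a6os the right end led in 13 of 13 libraries (exact test, adjusted p = 0.00463), and at Glrx2 the left end did, with 26.6% of joins to the right (exact test, adjusted p = 0.00463). At Cntln the right end had 70.2% and led in 12 libraries with a tie in the other, and at Alas1 the left end had 69.7% and led in 11 libraries against 1 (exact test, adjusted p = 0.00463 and 0.00694). With the 6 DMSO libraries alone none of 21 sites passed and 6 had an unadjusted p under 0.05, but the smallest exact p of 6 libraries is 0.0312 before adjustment over 66 motifs, so the design left almost no room for a call. The other calls over 13 libraries were Xylt2 (67.1% right), 2410002F23Rik (65.8%), Actr3 (64.6%), Aff4 (60.5%) and Cdk12 (56.9%), and on the left side Rab35 (36.8% right), Dvl3 (33.5%), Rtbdn (32.9%) and Ube2d2a (44.2%).

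**Figure D3:**
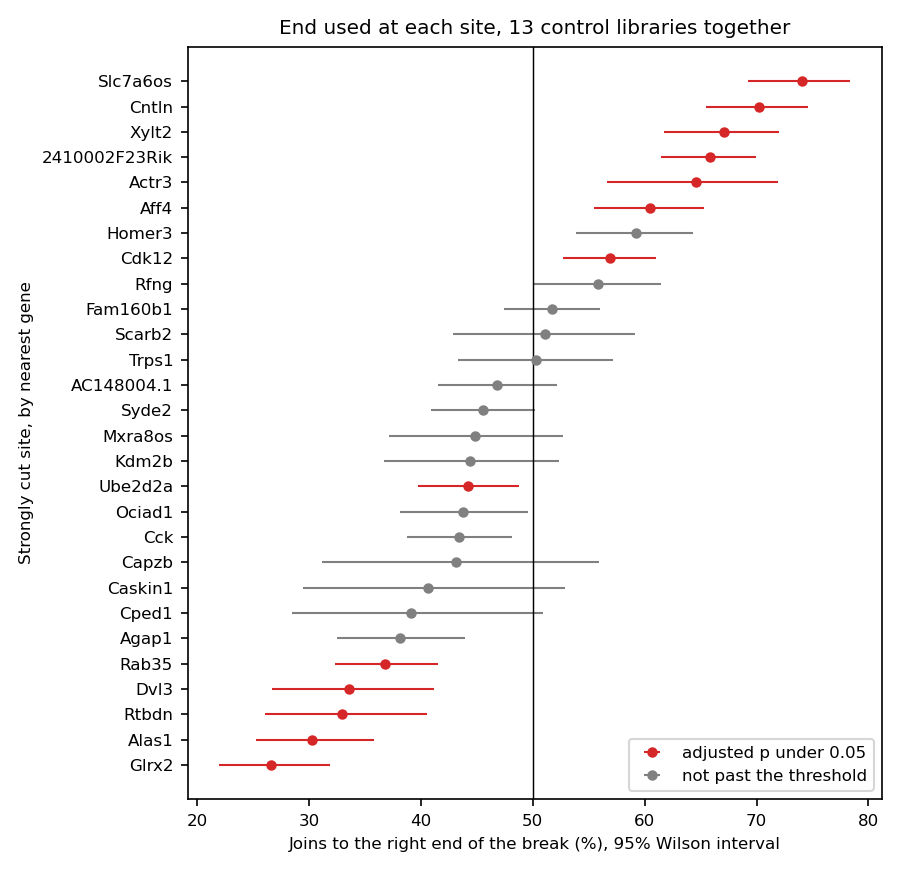
Percent of outward joins to the right end of the break (x axis) at 28 strongly cut sites with at least 50 such joins (y axis, named by nearest gene) in the 13 control libraries together; bars are 95% Wilson intervals, and red points passed the test over libraries. The 13 red sites lie on both sides of 50%, from Glrx2 at 26.6% to Slc7a6os at 74.1%.

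The end lying in the direction of transcription of the neighbouring gene had more than 50% of the joins at 10 of the 29 sites. It led at Cntln, a gene read rightwards whose start lies 37 bp from the cut, and at Alas1, read leftwards with its start 8 bp away. The opposite end led at Glrx2 and Slc7a6os, with starts 2 and 3 bp away. The left ends of Rab35 and Alas1, which were used more, are those with the longest overlap expected for whole ends. Over the 29 sites, though, Spearman's rho between right-end use and the difference in expected overlap of right and left end was 0.40, a description with no test.

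Overlap of bait and prey was counted in 4 classes. In the 6 DMSO libraries, 14.2% ± 3.15 of the joins carried an insertion, 17.9% ± 3.05 were blunt, with neither overlap nor insertion, 36.3% ± 3.61 overlapped by 1 to 5 bases and 31.6% ± 7.94 by 6 or more, called long overlap below (SD, n = 6). Most long overlaps had the motif restored. In the 13 controls together this held for 75.0% of the 2020 long overlaps, and in 80.1% of the 1516 restored joins the overlap had exactly the length that the reference gives for 2 whole ends. Joins with a restored motif made up 37.8, 27.0, 19.3, 20.9, 33.8 and 17.3% of joins in the 6 DMSO libraries. 

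The long overlap share also differed among sites. Of the 17 sites with at least 100 joins in the 6 DMSO libraries together it was highest at Alas1 (33.3%) and AC148004.1 (30.4%) and lowest at Cntln (18.3%) and Xylt2 (20.6%). It was 24.3% at Rab35, whose left end has the longest match to the bait. Sites with fewer junctions had higher shares. In the 13 controls Rtbdn had 42.4% (70 of 165 joins, Wilson interval 35.1 to 50.1%), Caskin1 42.0%, Capzb 40.3% and Cped1 37.1%. Over the 30 sites Spearman's rho between the mean share of junctions and the long overlap share was -0.77. This is a description over sites of the same libraries.

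Moderately cut sites showed more long overlap still. Their share was 49.8% ± 10.5 in the 6 DMSO libraries against 31.6% ± 7.94 at strongly cut sites, a difference of -18.11 percentage points ± 2.90 (SD, n = 6), lower at strongly cut sites in 6 of 6 libraries (exact sign-flip p = 0.0312) and in 13 of 13 controls. For end loss over 20 bases the strongly cut sites had 8.01% ± 2.33 and the moderately cut ones 5.12% ± 1.40. The difference of 2.89 points ± 2.67 was positive in 5 of 6 libraries (exact p = 0.0625), so it did not pass the threshold there. Over the 13 controls it was 3.05 points ± 2.26, positive in 12 (exact p = 0.000977).

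Long overlap also moved with the depth of the library. Among the 13 controls it ran from 11.5% in the largest, with 17479 junctions away from the bait, to 44.8% in the smallest, with 997 (see the plot of long overlap by library size). Pearson's r with log10 of the junctions was -0.95 (permutation p = 1e-05, the lowest value possible with 100000 resamples, adjusted 4e-05 over 4 relations) and Spearman's rho -0.90 (permutation p = 7e-05, adjusted 0.00028). Without the 2 libraries farthest from the median depth r was -0.92. End loss over 20 bases moved the other way (r = 0.85, permutation p = 0.00019, adjusted 0.00038; rho = 0.77, permutation p = 0.00287, adjusted 0.00383; r = 0.80 without those 2 libraries). The share of junctions at the 30 sites moved in the same direction as long overlap (r = -0.83, permutation p = 0.0004, adjusted 0.000533; rho = -0.81, permutation p = 0.00111, adjusted 0.00222; r = -0.73), whereas the inward share did not (r = -0.33, permutation p = 0.269, adjusted 0.269; rho = -0.20, permutation p = 0.506, adjusted 0.506; r = -0.47). The share of junctions at the 30 sites has the junctions away from the bait as its denominator, so it is not independent of depth by construction. The permutations treated the 13 controls as exchangeable, although they came from different runs and experiments. The 3 controls of 1 run, with 8023 to 17479 junctions, were the largest. No sequencing run held 6 control libraries, so r could not be given within runs. In each of the 4 runs with more than 1 control the smallest had more long overlap than the largest, for example 39.2% against 25.0% in the run of DMSO replicates 3 to 6. Why depth and overlap moved together was not tested.

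**Figure D4:**
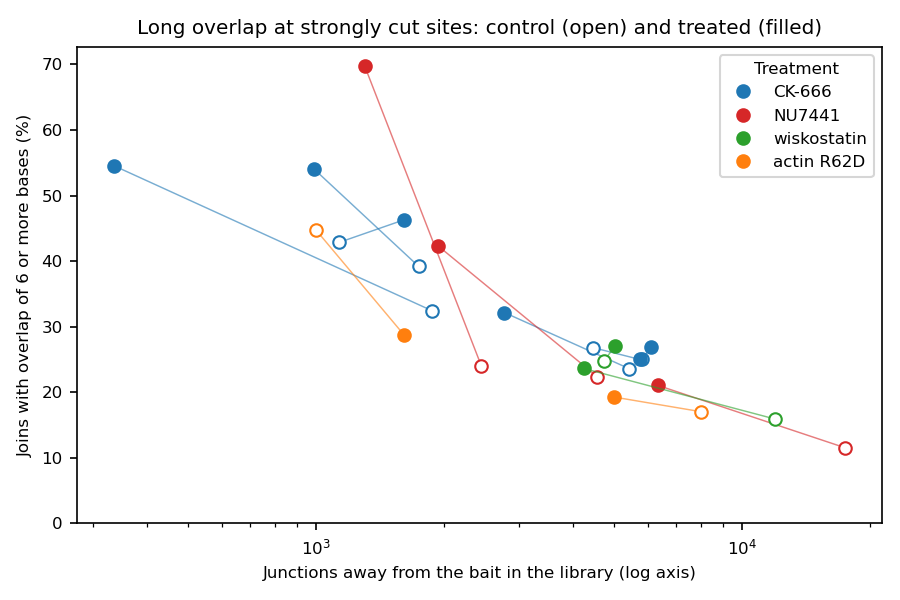
Percent of joins at the 30 sites with an overlap of 6 or more bases (y axis) against the number of junctions away from the bait in the library (x axis, log scale), with control libraries open, treated libraries filled and lines joining the libraries of a pair. Long overlap falls from left to right among the controls, and NU7441 replicates 1 and 2 lie above the controls of like size. Replicate 3, at 21.04% with 6348 junctions, lies between controls at 25.0% (5829 junctions) and 17.0% (8023 junctions).

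CK-666 left the share of junctions at the 30 sites within the spread of replicates. The treated libraries gave 15.6, 17.3, 12.4, 16.6, 18.8 and 16.1%, against 18.1, 16.1, 14.3, 17.0, 17.6 and 16.6% in their controls, lower in 4 pairs and higher in 2. The mean log2 ratio was -0.05 ± 0.138 (SD, n = 6, exact sign-flip p = 0.406). These are shares within a library, so a change in the total number of translocations would not show. Long overlap was higher in 5 of the 6 pairs, by 8.18 points ± 8.94 (exact p = 0.0625, adjusted 0.25 over 8 measures). The largest differences, 22.1 and 14.8 points, were in replicates 2 and 5, whose CK-666 libraries held 335 and 989 junctions against 1870 and 1740 in their controls. Without these 2 pairs the mean difference was 3.04 points. Treated minus control, right-end use differed by 4.93 points ± 5.07 (exact p = 0.0938, adjusted 0.25), end loss over 20 bases by -1.94 points ± 3.23 (exact p = 0.188, adjusted 0.3) and the inward share by -1.25 points ± 6.15 (exact p = 0.781, adjusted 0.781). None of the 8 measures passed the threshold.

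With NU7441 the share was lower in each of 3 pairs. It was 9.44, 6.15 and 10.3% with the inhibitor and 12.4, 15.2 and 12.3% without, and the groups did not overlap. The mean log2 ratio was -0.65 ± 0.569 (SD, n = 3, exact sign-flip p = 0.25, the smallest that 3 pairs can give), and -0.32 without replicate 2. Several features of the joins at these sites also moved the same way in all 3 pairs. Long overlap was 42.4, 69.7 and 21.04% against 22.4, 24.02 and 11.5%, a difference of 25.1 points ± 18.6, or 14.8 without replicate 2. Joins with a restored motif were 38.4, 65.8 and 13.97% against 16.5, 20.4 and 7.53%, a difference of 24.6 points ± 19.6, or 14.2 without replicate 2. Blunt joins were fewer, at 30.5, 6.58 and 19.9% against 33.4, 20.9 and 29.0%, and the share with a loss over 20 bases was 5.62, 1.32 and 18.3% against 12.3, 11.3 and 19.3%. Without replicate 2 the mean differences were -5.99 points for blunt joins and -3.87 for loss. Inward joins were 9.60, 0 and 6.28% against 10.3, 8.94 and 7.25%, a mean difference of -3.53 points, or -0.82 without replicate 2. The count of 0 was among only 76 joins, so a low share above 0 is not excluded there. No test with 3 pairs could pass, and the adjusted p was 0.333 for each of these 5 measures. The treated libraries were also smaller, with 1928, 1300 and 6348 junctions away from the bait against 4567, 2442 and 17479, and the part of depth in these differences was not tested.

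With wiskostatin the share was 13.6 and 14.8% against 12.6 and 16.2% in the controls, and with actin R62D 14.4 and 19.02% against 13.3 and 19.2%, so the pairs of each set went in opposite directions. Long overlap was 7.71 and 2.18 points higher with wiskostatin. With actin R62D it was 2.25 points higher in one pair and differed by -16.1 points in the other, where the control held 997 junctions. With 2 pairs no test over pairs was made.

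Per-site change was fitted over all 26 libraries together by limma's voom, on 263 motifs with at least 26 junctions, with the pair as a block. It covered 29 of the 30 sites, Gm10076 having too few junctions, and the filter was on the total over all libraries. With NU7441, 4 of the 29 sites fell and none rose (adjusted p under 0.05), where 3.04% of all 263 motifs fell and 8.37% rose. The median log2 fold change was -0.25 over the 29 sites and 0.32 over all motifs tested, and 23 of the 29 estimates were below 0 (see the plot of change per site). The median over all motifs depended on the count filter. It was 0.15 among the 198 motifs with 100 or more junctions, of which 7 rose, and 0.65 without a filter. The strongly cut sites had medians of -0.25 and -0.24 in those fits. The part of sparse motifs in this contrast was not tested. In simulated counts on these 263 motifs with the depth of the NU7441 comparison, 31.6% of 2-fold and 89.5% of 4-fold changes were called at motifs with 300 or more junctions. The simulation changed 131 of the motifs, used a fixed spread and had no differences between pairs or runs. Recovery in the real libraries can therefore differ.

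**Figure D5:**
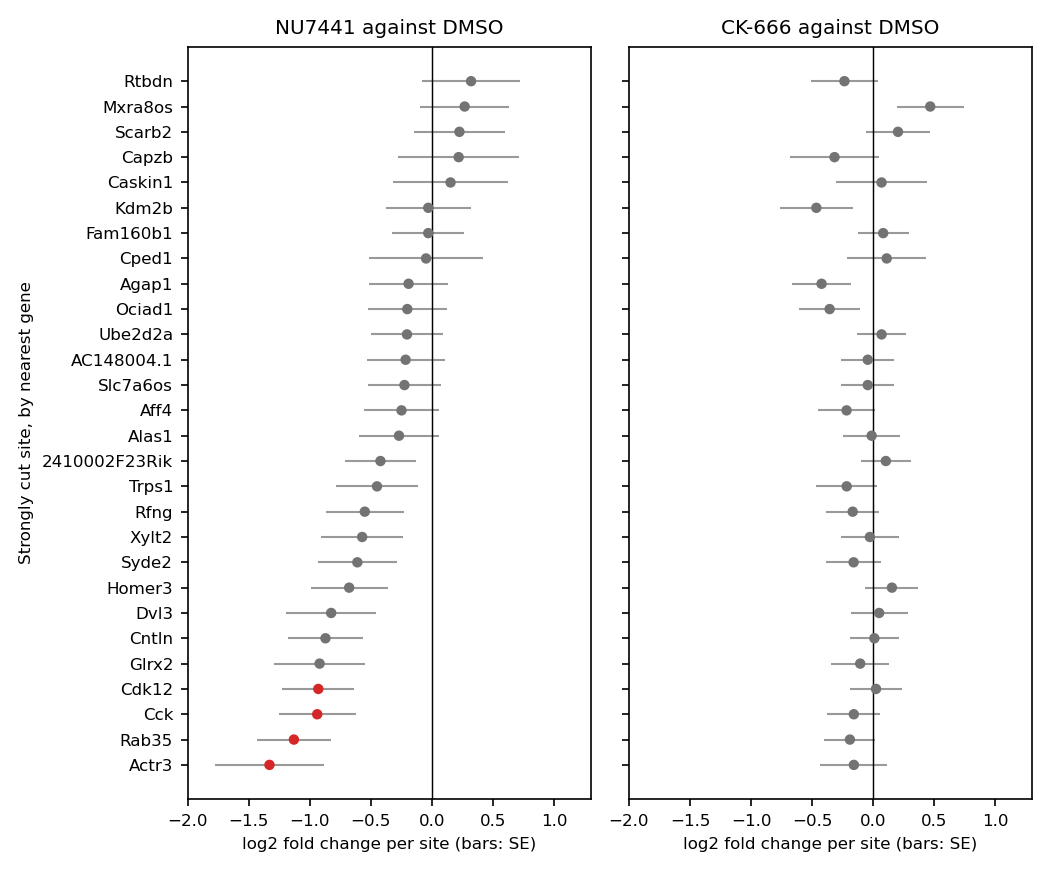
Log2 fold change of the share of junctions per site (x axis, bars are standard errors) at 28 strongly cut sites (y axis, named by nearest gene) for NU7441 (left) and CK-666 (right) against their DMSO controls, from the fit over 263 motifs; red points have an adjusted p under 0.05. The 4 red sites, Actr3, Rab35, Cck and Cdk12, are all lower with NU7441, and no site passed with CK-666.

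At Actr3 the share was 0.0519, 0 and 0.126% with NU7441 and 0.263, 0.164 and 0.240% in the controls, from 9 and 58 junctions in all. The log2 fold change was -1.33 (SE 0.447, limma adjusted p = 0.0457). At Rab35 it was 0.415, 0.231 and 0.394% against 0.854, 1.35 and 0.618%, a log2 fold change of -1.13 (SE 0.306, limma adjusted p = 0.0133). At the site nearest to Cck it was 0.207, 0.154 and 0.394% against 0.547, 0.4505 and 0.641%, a log2 fold change of -0.94 (SE 0.316, limma adjusted p = 0.0457). Cdk12 had a log2 fold change of -0.93 (SE 0.293, limma adjusted p = 0.0349). At these 4 sites all 3 pairs were lower and the treated and control values did not overlap. The fit had picked them from these same values, so this is no separate support. Some sites that did not pass, such as Glrx2 and Kdm2b, were also lower in all 3 pairs. The 4 calls were lost when NU7441 was fitted alone or without the block, and leaving out 1 pair gave 0 to 2 calls, while limma-trend gave 4. The median log2 fold change over the 29 sites was -0.28 when NU7441 was fitted alone and -0.24 without the block.

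CK-666, wiskostatin and actin R62D gave no site past the threshold in that fit or in limma-trend, and none of the 263 motifs (0%) passed in the voom fit in either direction. In the voom fit 0 of the 29 sites had an unadjusted p under 0.05 with CK-666, 2 with wiskostatin and 3 with actin R62D. The estimates with CK-666 lay between -0.47 and 0.47 on the log2 scale, with a median of -0.05 against -0.03 over all motifs. In simulated counts at the depth of that comparison, 71.1% of 2-fold changes were called at motifs with 300 or more junctions. The limits of the simulation given for NU7441 hold here too. At Actr3 and Capzb, whose products belong to the actin machinery, the log2 fold changes with CK-666 were -0.16 (SE 0.274, limma adjusted p = 0.976) and -0.32 (SE 0.367, limma adjusted p = 0.976).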

How the data were processed

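The authors made each library from phenol/chloroform-extracted, sonicated DNA by nested PCR from the bait, sequenced it on a MiSeq and aligned the reads to mm10 with BWA in the HTGTS pipeline, keeping mapping quality over 30 and removing exact duplicates (pipeline version not given in the sources used here). The deposited tables hold 1 line per junction with alignment positions and the prey strand. They carry no count or level column, so junctions were counted from lines. Libraries held 362 to 18428 junctions. Of the 44 samples of the series, 12 Hi-C samples were not analysed here.

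Sites and lists were chosen with earlier results of these data known. Shares used every junction under 500 bp from a motif, over junctions more than 10 kb from the bait. End features, the end test and the per-site fit used only junctions nearest to that motif, with the 500-bp rule as the alternative, a swap of the planned order. Inward and restored-motif joins were defined after positions had been seen. Loss was counted from the tip of the overhang. Overlap was the bait's query end minus the prey's query start plus 1.

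Libraries were compared by exact 2-sided sign-flip tests (scipy 1.17.1), paired by replicate number: the study's source data for CK-666 set each control to 1 within its replicate, and the other sets were treated alike here. Pairs also shared a sequencing run. Same-numbered libraries correlated over 88 motifs at -0.01 to 0.25 for CK-666 and 0.12 to 0.52 for NU7441, so the numbers alone did not show pairing in every CK-666 pair. Per-site change was fitted by voom in limma 3.58.1 (R 4.3.3), with all 13 pairs as blocks and Benjamini-Hochberg adjustment, and tested on simulated data. The alternatives were other windows, denominators, filters, fits and left-out replicates. Sites named in detail were the 8 highest and 4 lowest by share, those past a test of treatment, the 4 most one-sided, and the 2 highest and 2 lowest in long overlap. Intervals are 95% Wilson intervals, which cover counting error only, also where the joins of several libraries are pooled. Of the 30 sites, 1 is counted in all totals but is not reported here by itself or drawn in the plots by site.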

Additional observations from a re-analysis of the deposited data

Results flagged for a closer look

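In 78 groups of 6 libraries examined, 1 library stood far from the others in 8, where chance gives about 1 in 20. With CK-666, replicate 5 had the lowest share of joins with a loss over 20 bases, at 1.36%. In the small CK-666 replicate 2, Actr3 had 0% of the junctions and Cdk12 had 1.79%, its highest value. With DMSO, replicate 1 was high at Xylt2 (1.59%), replicate 5 at Rfng (0.977%) and at Alas1 (0.747%), and replicate 2 at Gm10076 (0.0535%). DMSO replicate 2 was low at Fam160b1, with 0.535%. Cells without AsiSI also gave junctions at the 30 sites: the highest share in a Cas9 library was 1.49%, in CK-666 replicate 3. Their origin was not tested.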

How the results depend on the processing

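Of 359 values of 36 results under other settings, 316 kept their direction and their side of the threshold or moved little. The share in the DMSO libraries was 13.9% within 50 bp, 14.9% with each position and strand counted once and 31.1% of the junctions near any motif off chromosome 2. Over that last denominator the log2 ratio for CK-666 was 0.0115 and that for actin R62D -0.0581. The CK-666 difference in insertions was 0.15 points within 50 bp and 0.97 without replicates 2 and 5, a selection made after seeing the data, under which the inward difference was 2.03. The NU7441 difference in right-end use was -0.25 points with positions counted once. Strongly against moderately cut sites, end loss over 50 bases differed by 1.22 points (exact p = 0.0312), and loss over 20 bases by 3.05 over all 13 controls, an alternative added later. The end test called 0 sites in the 6 DMSO libraries alone, where the smallest exact p, 0.0312, can hardly pass adjustment over 66 motifs. NU7441 sites past the threshold numbered 2 among motifs with 100 or more junctions, 1 without a filter, 0 when fitted alone, 1 with positions counted once and 0 without the replicate block, which changed no other call. Wiskostatin had 1 without a filter and actin R62D 1 when fitted alone.

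Leaving out 1 replicate gave log2 ratios per site of 1.78 to 1.81 against moderately cut sites and 1.91 to 2.03 for chromosome 2, and overlap differences of -18.92 to -17.24, each with 5 libraries, for which 0.0625 is the smallest exact p. The CK-666 difference ran from -2.21 to 0.62 for insertions and from -2.20 to 1.01 for inward joins, and the NU7441 difference in right-end use from -0.26 to 1.90. For NU7441 the log2 ratio of shares ran from -0.85 to -0.32, the difference in long overlap from 14.8 to 32.9 and in restored motifs from 14.2 to 33.7, each nearest to 0 without replicate 2, and 0 to 2 sites passed. The wiskostatin log2 ratio ran from -0.13 to 0.11 and that of actin R62D from -0.01 to 0.12, since 1 pair is then left, and so did the other measures of these sets: long overlap from 2.18 to 7.71 and from -16.09 to 2.25, inward joins from 1.01 to 8.38 and from -0.23 to 5.01, and loss from -3.96 to 0.60 and from -2.10 to 5.79. Small libraries limit single sites most: 1 junction was 0.299% of the smallest.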
